A study of Homo sapiens with 12 samples.

Results

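Mitotic entry, chromosome attachment, separation and cell division were examined through 44 genes for mitotic kinases, spindle checkpoint proteins, kinetochore proteins, kinesins and cytokinesis factors. The genes were taken by symbol from a list of genes with known roles in mitosis. They were 44 of the 19659 genes in the deposited mRNA table, all 44 were found, and each symbol had a single gene identifier. The cells were labelled HEL, a human erythroleukaemia line that can acquire megakaryocyte features. They were either controls or were exposed for 3 days to DMAG at 40 µg/ml, a glucoside of a di-O-methylated ellagic acid obtained from the plant Sanguisorba officinalis. No dose, day or vehicle is recorded for the controls. Each group had 3 RNA-Seq libraries made from RNA depleted of ribosomal RNA, and the levels are FPKM, which scales fragments by transcript length and by the library's total, summed over the transcripts of a gene. The series title names an inhibition of proliferation and a megakaryocytic differentiation of leukaemia cells by DMAG, and the comparison asks how the transcripts of the division machinery stood in the treated cells.

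Entry into mitosis is driven by cyclin-dependent kinase 1 bound to cyclin A or B, which CDC25 phosphatases switch on and the Polo and Aurora kinases amplify. The spindle assembly checkpoint then holds the anaphase-promoting complex, a ubiquitin ligase, until the kinetochores of every chromosome are attached to microtubules. Once its activator CDC20 is released, the ligase marks cyclin B and securin for destruction, separase cuts cohesin, and the cell divides. Most of these genes are transcribed late in the cell cycle, under the control of the DREAM and MYB-MuvB complexes, NF-Y and FOXM1, so their transcript levels in a bulk sample tend to follow the share of cells in that stage.

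How many reads lie behind the FPKM values is unknown, and the labels do not say whether the libraries came from separate cultures, so the p-values measure the spread between these libraries, which may be technical. The markers did not show the erythroid profile that the name HEL implies. Of 14 erythroid genes, 10 had a mean below 0.5 FPKM, and GATA1, the erythroid transcription factor, did not exceed 0.142 FPKM. The summed erythroid level was 4.0 to 4.84 FPKM in controls and 4.75 to 586 FPKM with DMAG. EPOR made up most of the control sums, at 3.43, 3.96 and 3.75 FPKM. Of the 4 erythroid genes tested, it alone was called, at means of 3.71 FPKM in controls and 4.49 FPKM with DMAG. The highest sum was that of DMAG library 3, where the alpha globin genes HBA1 and HBA2 reached 375 and 199.6 FPKM against at most 0.0935 FPKM in the other libraries. Megakaryocyte genes were low in both groups, with sums of 1.15 to 1.32 FPKM in controls and 1.15 to 1.81 FPKM with DMAG over 12 genes, of which 11 had a mean below 0.5 FPKM. GP9 was listed at 0 throughout. ITGA2B was 0.0732, 0.0413 and 0.133 FPKM in controls and 0.229, 0.330 and 0.313 FPKM with DMAG. Its groups did not overlap, but its level was too low to be tested. The groups of the other megakaryocyte genes listed overlapped. Granule and myeloid genes, 11 in all, summed to 2643 to 2772 FPKM in controls and 2164 to 2339 FPKM with DMAG. In controls the sum was carried mainly by MPO (mean 1089 FPKM) and PRTN3 (916 FPKM). With DMAG the highest means were those of MPO (815 FPKM), CLC (523 FPKM, against 319.8 FPKM in controls) and LYZ. PRTN3 was then at 227 FPKM. Of the 10 tested, 6 rose (60.0%, against 22.4% of all genes tested) and 4 fell (40.0%, against 26.1%). LYZ was at a mean of 168 FPKM in controls and 444 FPKM with DMAG. The part of these differences in the results that follow was not tested, and counts are also given without DMAG library 3.

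Promoter sequences were compared first. A RefSeq promoter sequence (GRCh38.p14, 250 bases before to 50 bases after the annotated start) was found for 37 of the 44 genes, and not for BUB3, AURKA, BIRC5, TPX2, UBE2C, FOXM1 and TTK. Promoters of late cell-cycle genes typically hold a cell cycle genes homology region (CHR), searched here as TTTGAA or TTCGAA on either strand, and boxes for NF-Y, searched as CCAAT on either strand. A CHR match was present in 28 of 37 promoters (75.7%) against 16.4% of all 35116 promoters in the table. A CCAAT match was present in 29 of 37 (78.4%) against 34.6%, and both in 24 of 37 (64.9%) against 6.4%. At least 2 CCAAT matches, counting the palindrome CCAATTGG as 2 overlapping ones, were present in 18 of 37 promoters (48.6%) against 10.8%. The matches also lay in a narrow stretch. Of the 28 promoters with a CHR, 24 (85.7%) had one between -40 and +50 bases from the start, against 27.7% of all promoters with a CHR. Of the 29 with CCAAT, 25 (86.2%) had one between -110 and -40, against 46.2%. The bounds of these stretches were not set in the plan, so the shares by position are a description with no test. A match is a run of letters and says nothing on binding in these cells.

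The promoters of 6 genes are printed below, from 130 bases before to 30 bases after the start and 5′ to 3′ on the gene's strand, which is plus for all 6. They show the arrangement in genes that differed in opposite directions with DMAG: PTTG1 and HMMR were higher, PLK1, CDC20 and KIF20A were lower, and CCNB2 was not called. Capitals mark the CHR and CCAAT matches. The windows are chr5:160421725-160421884 for PTTG1, chr5:163460502-163460661 for HMMR, chr15:59105016-59105175 for CCNB2, chr16:23678759-23678918 for PLK1, chr1:43358851-43359010 for CDC20 and chr5:138178982-138179141 for KIF20A.
PTTG1: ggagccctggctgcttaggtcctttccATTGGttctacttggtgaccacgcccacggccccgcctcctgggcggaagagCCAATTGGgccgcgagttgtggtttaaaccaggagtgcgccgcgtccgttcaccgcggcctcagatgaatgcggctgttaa
HMMR: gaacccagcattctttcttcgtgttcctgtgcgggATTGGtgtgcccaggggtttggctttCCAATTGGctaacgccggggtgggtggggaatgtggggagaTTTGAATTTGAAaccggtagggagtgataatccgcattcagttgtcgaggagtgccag
CCNB2: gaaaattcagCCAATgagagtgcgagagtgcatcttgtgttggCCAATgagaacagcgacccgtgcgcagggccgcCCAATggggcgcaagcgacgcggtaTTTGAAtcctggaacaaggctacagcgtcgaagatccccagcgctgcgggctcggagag
PLK1: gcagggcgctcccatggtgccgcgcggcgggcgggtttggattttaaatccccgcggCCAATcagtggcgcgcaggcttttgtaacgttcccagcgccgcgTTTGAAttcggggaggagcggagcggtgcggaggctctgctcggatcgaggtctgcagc
CDC20: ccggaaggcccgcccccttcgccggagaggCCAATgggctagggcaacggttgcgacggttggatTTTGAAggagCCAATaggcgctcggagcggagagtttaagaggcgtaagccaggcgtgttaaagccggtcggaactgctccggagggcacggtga
KIF20A: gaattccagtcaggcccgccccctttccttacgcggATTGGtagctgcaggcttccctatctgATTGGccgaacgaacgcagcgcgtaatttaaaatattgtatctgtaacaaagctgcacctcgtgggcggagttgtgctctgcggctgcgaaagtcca

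CCNB2 carries the textbook arrangement, with CCAAT matches spaced 33 bases apart and a CHR at -29. In PLK1 a single CCAAT at -73 precedes a CHR at -29, and in CDC20 the CHR at -65 lies between CCAAT matches at -100 and -55. HMMR has adjoining CHR matches at -28 and -22. PTTG1 and KIF20A, the member with the largest rise and that with the largest fall, share CCAAT matches without TTTGAA or TTCGAA. Other forms of the CHR were not searched. Among the promoters by outcome, CHR and CCAAT occurred together in 10 of 13 genes that were higher, 11 of 16 not called and 3 of 8 that were lower, which is a description of few genes with no test.

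**Figure D1:**
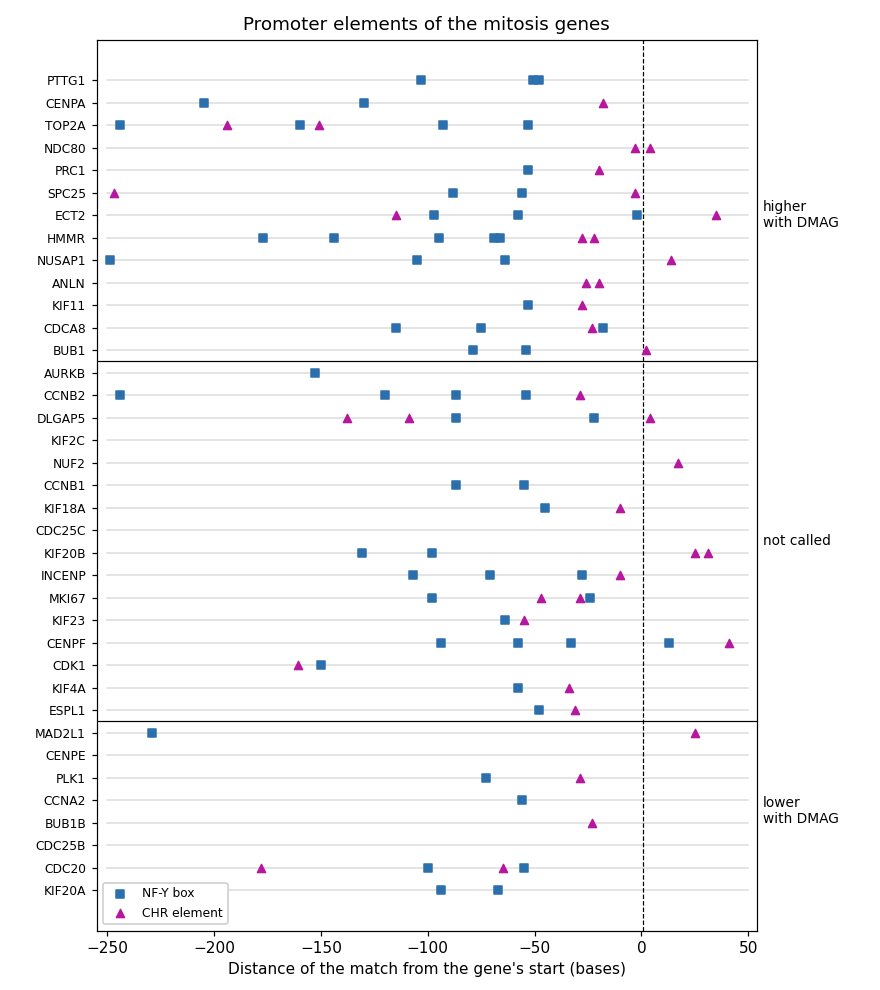
Distance in bases from the annotated start (horizontal axis) of each CHR match (triangles) and each NF-Y box match (squares) in 37 promoters, ordered by log2 change within the genes that were higher, not called or lower with DMAG. Most CHR matches sit within 40 bases upstream of the start or just past it, and most NF-Y boxes sit upstream of them.

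With DMAG, the division genes did not move as a block. Of the 44 genes, all of which passed the filter of a mean of at least 0.5 FPKM, 16 rose (36.4%, against 22.4% of the 10394 genes tested), 8 fell (18.2%, against 26.1%) and 20 were not called at an adjusted p under 0.05. The 24 called genes were 54.5% of the members, close to the 48.6% of all genes that were called in either direction. The groups did not overlap with DMAG above in 17 members (38.6% of 44 by that criterion, against 27.9% of all genes) and with DMAG below in 9 (20.5%, against 31.6%). The median log2 change was 0.08, against -0.01 for all genes tested, and 31 members were above 0 and 13 below. The changes were small: none of the members reached 0.5 on the log2 scale in either direction, whereas 17.2% of all genes did, and the median size was 0.18 against 0.22. The division genes were well expressed, at a median of 33.4 FPKM against 13.3 FPKM for all genes tested, and 39 of 44 lay above that median.

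Summed over the 44 genes, the level was 1663, 1675 and 1690 FPKM in control libraries 1 to 3 and 1838, 1783 and 1776 FPKM in DMAG libraries 1 to 3. Every DMAG library was above every control library. The sum weighs the most abundant genes most. Among these, TOP2A (mean 129 FPKM in controls and 161 FPKM with DMAG) and PTTG1 (85.9 and 120.2 FPKM) rose. CDC20 (91.4 and 74.4 FPKM) and CCNA2 (82.5 and 70.2 FPKM) fell. The whole table summed to less with DMAG, at 328350 to 332916 FPKM against 348907 to 357821 FPKM. In a bulk sample, a different share of cells in mitosis and a different amount of these transcripts per cell cannot be told apart. Without DMAG library 3, 14 members were called higher and 7 lower, and 19.6% of all genes were called higher and 23.1% lower.

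**Figure D2:**
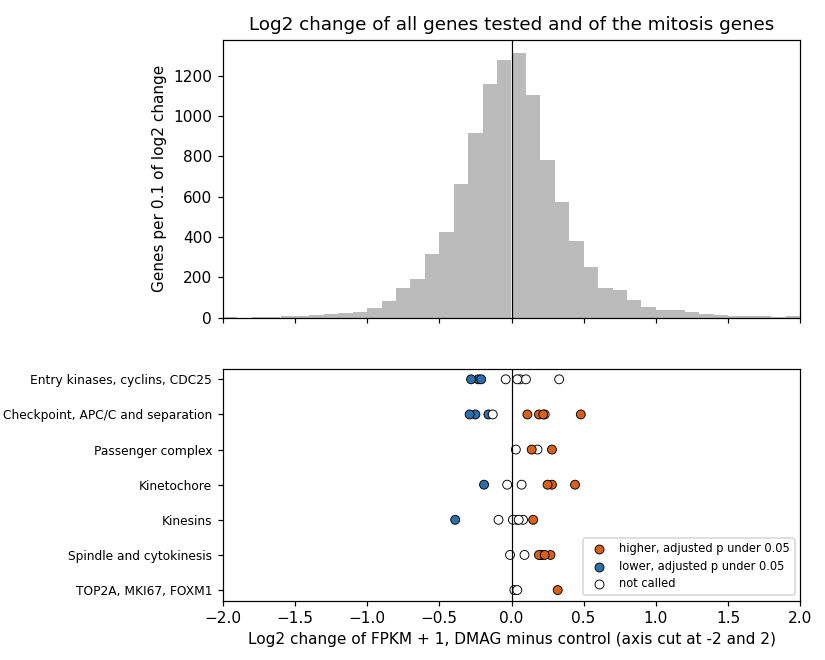
Upper panel: number of genes tested per 0.1 of log2 change of FPKM + 1, DMAG minus control. Lower panel: the same log2 change for the 44 division genes by role (orange higher, blue lower, white not called), where every gene lies between -0.39 and 0.48 and the fallen genes are mainly in the upper rows.

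Of the 8 kinases, cyclins and phosphatases that start mitosis, 3 fell (37.5%) and 5 were not called (4 log2 changes above 0 and 4 below). Of all genes tested, 26.1% fell and 22.4% rose. None of the 8 was called higher in the comparison as fitted. The exception under other scalings was CCNB2, at 47.9, 46.4 and 46.1 FPKM in controls and 52.2, 49.7 and 48.9 FPKM with DMAG. Its groups did not overlap, and its log2 change of 0.10 (adjusted p = 0.071) became 0.12 (adjusted p = 0.038) when the library medians were made equal and 0.17 (adjusted p = 0.013) with quantile normalization. CCNA2, the cyclin A that acts in S phase and at mitotic entry, was 82.6, 82.2 and 82.9 FPKM in controls and 72.1, 68.7 and 69.8 FPKM with DMAG. The groups were well apart, and it fell by 0.23 on the log2 scale (SE 0.0318, adjusted p = 0.0018). PLK1, the Polo kinase that acts from entry to division, was 60.9, 62.2 and 62.5 FPKM in controls and 55.2, 51.4 and 53.8 FPKM with DMAG, and fell by 0.21 (adjusted p = 0.0052). CDC25B, a phosphatase that activates CDK1, was 12.2, 11.1 and 13.3 FPKM in controls and 9.70, 9.83 and 10.1 FPKM with DMAG. All DMAG libraries lay below the controls, and it fell by 0.28 (adjusted p = 0.020). This call was lost without control library 1, DMAG library 1 or DMAG library 2 (adjusted p = 0.053 to 0.061).

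CDK1 itself, the kinase at the centre of entry, differed little on gene sums: 65.1, 63.5 and 64.1 FPKM in controls and 59.6, 64.0 and 63.3 FPKM with DMAG. The groups overlapped, and the log2 change was -0.04 with a 95% interval of -0.14 to 0.05 (adjusted p = 0.39). Its most abundant transcript held 67.8% to 77.7% of the gene. With that transcript alone, CDK1 was called lower (log2 change -0.16, adjusted p = 0.024). CDC25C, a further activating phosphatase, had the lowest mean level of the members, at 5.38 ± 0.399 FPKM in controls and 5.55 ± 0.186 FPKM with DMAG (SD, n = 3 each). CCNB1, the main mitotic cyclin, was 31.2, 41.9 and 30.8 FPKM in controls and 39.9, 33.4 and 34.3 FPKM with DMAG, so that 1 library in each group stood above its fellows (log2 change 0.06, interval -0.26 to 0.38). AURKA, the Aurora kinase of the spindle poles, was 35.6, 46.6 and 38.6 FPKM in controls and 56.8, 58.5 and 38.9 FPKM with DMAG. DMAG library 3 lay among the controls while the other DMAG libraries were above them. Its log2 change was 0.33 with an interval of -0.10 to 0.76 (adjusted p = 0.17), and without DMAG library 3 it was 0.52 (adjusted p = 0.019).

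The checkpoint and anaphase genes held the strongest rise and some of the clearest falls. Of 9 genes, 4 rose (44.4%), 3 fell (33.3%) and 2 were not called (all genes: 22.4% higher and 26.1% lower). PTTG1 codes for securin, the inhibitor that separase is freed from at anaphase. It was 88.3, 82.3 and 86.9 FPKM in controls and 119, 121 and 120.1 FPKM with DMAG. The DMAG libraries were nearly identical and far above the controls, a mean of 1.40 times the control level, and the log2 change was 0.48 (SE 0.0368, adjusted p = 2.1e-04). PTTG1 has near-identical intronless copies in the genome, and how reads shared with them were counted is not given in the sources used here. ESPL1, the separase that securin holds, was 22.5, 22.6 and 24.8 FPKM in controls and 20.8, 21.7 and 21.2 FPKM with DMAG. Its groups did not overlap, but the difference of -0.13 (interval -0.25 to -0.01) did not pass after adjustment (adjusted p = 0.080).

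CDC20, the activator of the anaphase-promoting complex and the target of the checkpoint, was 92.4, 92.2 and 89.5 FPKM in controls and 72.1, 74.4 and 76.7 FPKM with DMAG. Every DMAG library was below every control library, and CDC20 fell by 0.29 (SE 0.0358, adjusted p = 0.0011). BUB1B, which codes for the BUBR1 subunit of the mitotic checkpoint complex, was 35.3, 36.2 and 36.4 FPKM in controls and 31.6, 28.4 and 30.7 FPKM with DMAG, and fell by 0.25 (adjusted p = 0.0065). MAD2L1, the MAD2 subunit of the same complex, was 33.4, 30.9 and 31.9 FPKM in controls and 27.8, 28.8 and 29.2 FPKM with DMAG, and fell by 0.16 (adjusted p = 0.023). These subunits of the checkpoint complex and CDC20 stood lower, but BUB3, which belongs to the same complex, did not. Its log2 change was 0.23 and it was not called (adjusted p = 0.36). Without control library 1 or 3 or DMAG library 1 or 2, the adjusted p of MAD2L1 was 0.056 to 0.070, and with quantile normalization it was 0.13.

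The checkpoint kinases went the other way. BUB1, the kinase that docks the checkpoint at kinetochores, averaged 52.9 ± 0.321 FPKM in controls and 57.1 ± 1.01 FPKM with DMAG (SD, n = 3 each; adjusted p = 0.029). TTK, the MPS1 kinase that starts checkpoint signalling, averaged 30.1 ± 1.96 and 34.3 ± 1.38 FPKM (adjusted p = 0.038). Both calls were fragile: BUB1 was lost without any single library except DMAG library 3 (adjusted p = 0.054 to 0.091), and TTK without control library 2 or 3 or DMAG library 2 or 3 (adjusted p = 0.060 to 0.11). UBE2C, the ubiquitin-conjugating enzyme of the anaphase-promoting complex, rose from 52.8 ± 0.807 to 61.6 ± 2.33 FPKM (adjusted p = 0.0047). BUB3, a partner of both BUB1 and BUBR1, was 55.0, 49.8 and 54.3 FPKM in controls and 73.9, 45.2 and 71.9 FPKM with DMAG. DMAG library 2 was below the controls and the other DMAG libraries above. The log2 change of 0.23 (adjusted p = 0.36) became 0.45 (adjusted p = 0.0034) without DMAG library 2.

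**Figure D3:**
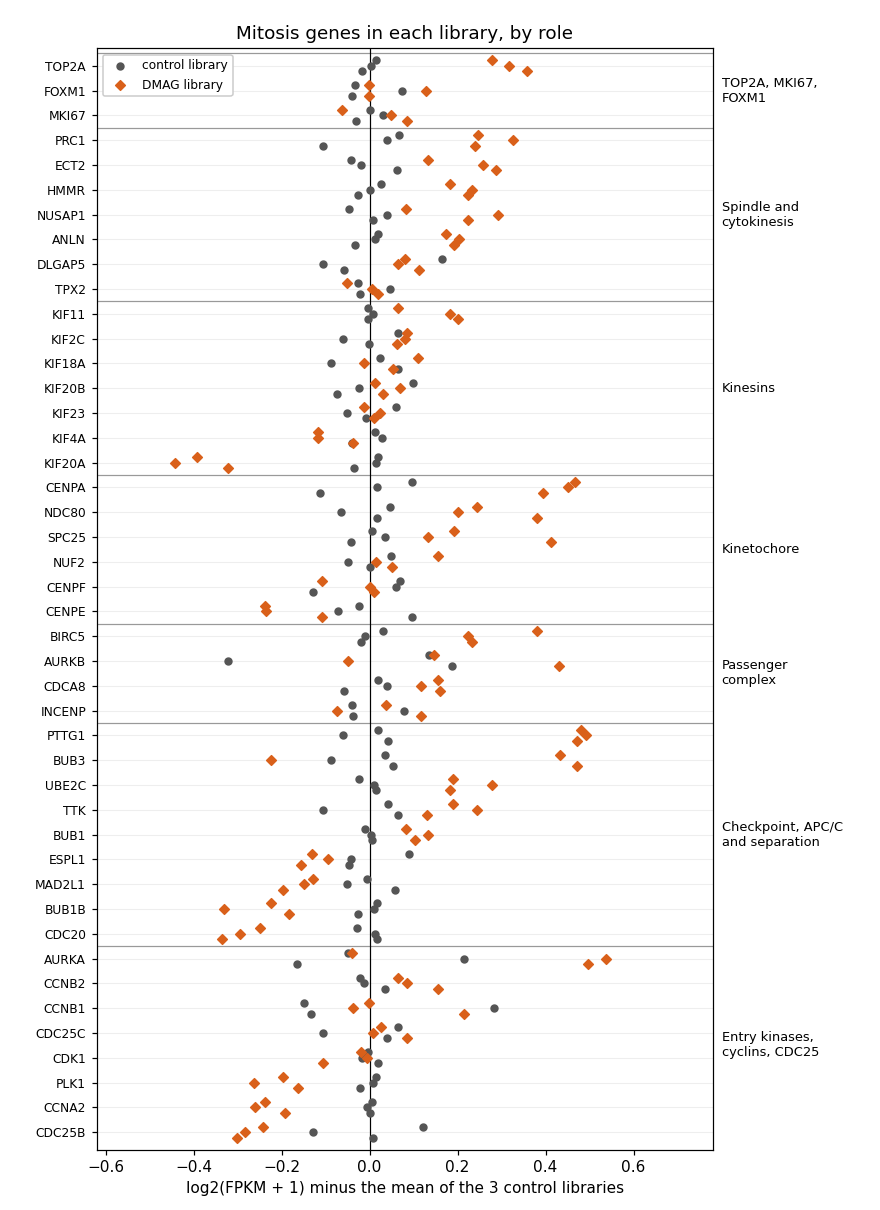
Each point is 1 library: log2(FPKM + 1) minus the mean of the 3 control libraries (horizontal axis) for the 44 genes by role (grey circles control, orange diamonds DMAG). PTTG1, CENPA and TOP2A have their DMAG libraries well to the right, KIF20A, CDC20 and CDC25B well to the left, and AURKA, BUB3 and AURKB are spread widely.

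The chromosomal passenger complex, which corrects faulty attachments and then moves to the midzone, had 4 members measured: 2 rose, and none fell. BIRC5, or survivin, was 43.6, 44 and 45.2 FPKM in controls and 52.2, 51.9 and 57.9 FPKM with DMAG. All DMAG libraries were above the controls (log2 change 0.28, SE 0.0508, adjusted p = 0.0052). CDCA8, or borealin, averaged 35.1 ± 1.29 FPKM in controls and 38.9 ± 0.664 FPKM with DMAG (SD, n = 3 each; adjusted p = 0.025). The CDCA8 call was lost without control library 1 or 3 or DMAG library 1 or 3 (adjusted p = 0.050 to 0.072). AURKB, the kinase of the complex, was 20.9, 14.4 and 20.2 FPKM in controls and 25.0, 17.6 and 20.3 FPKM with DMAG, with overlapping groups and a log2 change of 0.18 (interval -0.25 to 0.60). INCENP, its scaffold, was 28.3, 30.7 and 28.2 FPKM in controls and 31.6, 27.5 and 29.8 FPKM with DMAG, and the groups overlapped.

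Among 6 centromere and kinetochore genes, 3 rose, 1 fell and 2 were not called. CENPA, the histone H3 variant that marks the centromere, was 17.2, 18.8 and 20.0 FPKM in controls and 24.8, 25.8 and 26.1 FPKM with DMAG. The groups were well apart, and the log2 change of 0.44 (SE 0.0610, adjusted p = 0.0018) was next in size to that of PTTG1. NDC80, which binds microtubules at the outer kinetochore, was 30.7, 28.9 and 31.3 FPKM in controls and 39.7, 35.0 and 36.1 FPKM with DMAG (log2 change 0.28, adjusted p = 0.0097). SPC25, a subunit of the same complex, averaged 19.6 ± 0.563 and 23.5 ± 2.56 FPKM (adjusted p = 0.040), and lost its call without any control library or without DMAG library 3 (adjusted p = 0.062 to 0.10). NUF2, the partner that forms a dimer with NDC80, was 22.8, 22.0 and 23.6 FPKM in controls and 23.7, 23.0 and 25.5 FPKM with DMAG. Its groups overlapped (log2 change 0.07, interval -0.05 to 0.20).

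CENPE, the motor that carries chromosomes to the spindle equator, fell by 0.19 from 16.5 ± 1.06 to 14.3 ± 0.795 FPKM (adjusted p = 0.045). Its call rested on little: it was lost with both other scalings (adjusted p = 0.059 and 0.074) and without control library 1 or 3 or DMAG library 2 or 3 (adjusted p = 0.084 to 0.12), and with its most abundant transcript alone the log2 change was 0.12. CENPF, a large protein of the outer kinetochore, averaged 38.6 ± 2.99 FPKM in controls and 37.7 ± 1.73 FPKM with DMAG (interval of the log2 change -0.19 to 0.13).

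The kinesins, motors that build the spindle and move chromosomes, were mostly not called. Of 7, 1 rose, 1 fell (14.3% each) and 5 were not called (all genes: 22.4% higher and 26.1% lower). KIF20A, the kinesin that brings Polo kinase to the central spindle, was 9.76, 10.1 and 10.2 FPKM in controls and 7.82, 7.12 and 7.40 FPKM with DMAG. It was the largest fall of the 44 genes, by 0.39 on the log2 scale (SE 0.0517, adjusted p = 0.0016), at a mean 1.35 times lower than in controls. KIF11, the motor that pushes spindle poles apart, averaged 45.7 ± 0.219 FPKM in controls and 50.9 ± 2.65 FPKM with DMAG (adjusted p = 0.034). Leaving out any library except DMAG library 3 ended the KIF11 call (adjusted p = 0.076 to 0.099). KIF23, the kinesin of the central spindle, was 24.0, 23.3 and 25.2 FPKM in controls and 24.3, 24.6 and 23.9 FPKM with DMAG. KIF2C, which shortens microtubules at faulty attachments, had a log2 change of 0.08 (interval -0.02 to 0.17) that was called with quantile normalization (0.14, adjusted p = 0.028). The chromokinesin KIF4A was at -0.09 (interval -0.20 to 0.01), and KIF20B and KIF18A were at 0.04 and 0.05.

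Of the 7 microtubule-binding and cytokinesis genes, 5 rose and none fell (22.4% and 26.1% of all genes tested). With the most abundant transcript of each gene alone, all 5 lost their call (adjusted p = 0.059 to 0.51). The 1 gene of the 7 called higher there was DLGAP5 (log2 change 0.17, adjusted p = 0.023), which was not called on gene sums. PRC1, which bundles the microtubules of the central spindle, was 24.6, 27.3 and 27.9 FPKM in controls and 31.5, 33.5 and 31.6 FPKM with DMAG. All DMAG libraries were above all controls (log2 change 0.27, SE 0.0574, adjusted p = 0.0096). ECT2, the exchange factor that activates RhoA at the division plane, was 18.5, 17.4 and 17.1 FPKM in controls and 21.8, 21.3 and 19.5 FPKM with DMAG (log2 change 0.23, adjusted p = 0.018). ANLN, the scaffold of the contractile ring, rose from 33.4 ± 0.679 to 38.2 ± 0.402 FPKM (adjusted p = 0.0045). HMMR, which acts in spindle assembly, rose from 40.0 ± 0.725 to 46.5 ± 0.868 FPKM (adjusted p = 0.0029). NUSAP1, a protein of spindle microtubules near chromosomes, averaged 40.5 ± 1.25 and 46.7 ± 3.49 FPKM (adjusted p = 0.036).

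Calls of this role were lost for NUSAP1 without any library except DMAG library 3 (adjusted p = 0.061 to 0.10) and for ECT2 without control library 2 or 3 or DMAG library 1 or 2 (adjusted p = 0.056 to 0.058). TPX2, which activates AURKA on the spindle, was level, at 59.3, 62.2 and 59.0 FPKM in controls and 61.0, 60.4 and 58.0 FPKM with DMAG (log2 change -0.01, interval -0.10 to 0.08). DLGAP5, a stabiliser of spindle microtubules, was 31.6 ± 3.35 and 33.5 ± 0.572 FPKM. Its log2 change of 0.09 was 0.17 (adjusted p = 0.026) without control library 3, which held the highest DLGAP5 level of the controls, 35.5 FPKM.

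TOP2A, the topoisomerase that untangles sister chromosomes, was the most abundant member. It was 128, 129 and 131 FPKM in controls and 166, 161 and 157 FPKM with DMAG, with no overlap (log2 change 0.32, SE 0.0339, adjusted p = 6.5e-04). MKI67, the Ki-67 protein used as a marker of cycling cells, was 28.1, 29.4 and 28.7 FPKM in controls and 30.5, 29.8 and 27.5 FPKM with DMAG. The groups overlapped, and the log2 change of 0.02 had an interval of -0.09 to 0.14. FOXM1, the transcription factor of late cell-cycle genes, was 10.7, 11.7 and 10.8 FPKM in controls and 11.1, 12.2 and 11.1 FPKM with DMAG, again with overlap (0.04, interval -0.10 to 0.19).

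Single transcripts were seen at high levels in some libraries and not in others of the same group. AURKA has 13 listed transcripts, and different ones led in different libraries. ENST00000395911 was at 31.3 FPKM in DMAG library 1 and listed at 0 in the other libraries. ENST00000371356 was at 18 FPKM in DMAG library 3 alone, and ENST00000395915 at 17.3 FPKM in control library 3 and 20.7 FPKM in DMAG library 2 against at most 3.64 FPKM elsewhere. For BUB3, ENST00000368865 lay within 26.1 to 30.7 FPKM in all libraries, while ENST00000368858 was 21.1, 17 and 20.7 FPKM in controls and 45.5, 12.6 and 43.3 FPKM with DMAG, so the scatter of the gene was that of the latter transcript. For CCNB1, ENST00000506572 was at 17.5 FPKM in control library 2 and 17.2 FPKM in DMAG library 1 and at most 1.8 FPKM elsewhere. Those are the libraries that stood above their fellows in the CCNB1 sum. Over the 44 genes, with 199 listed transcripts, the most abundant transcript held at least 80% of the gene in every library in 18 genes, and its share varied by over 30 points between libraries in 9.

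**Figure D4:**
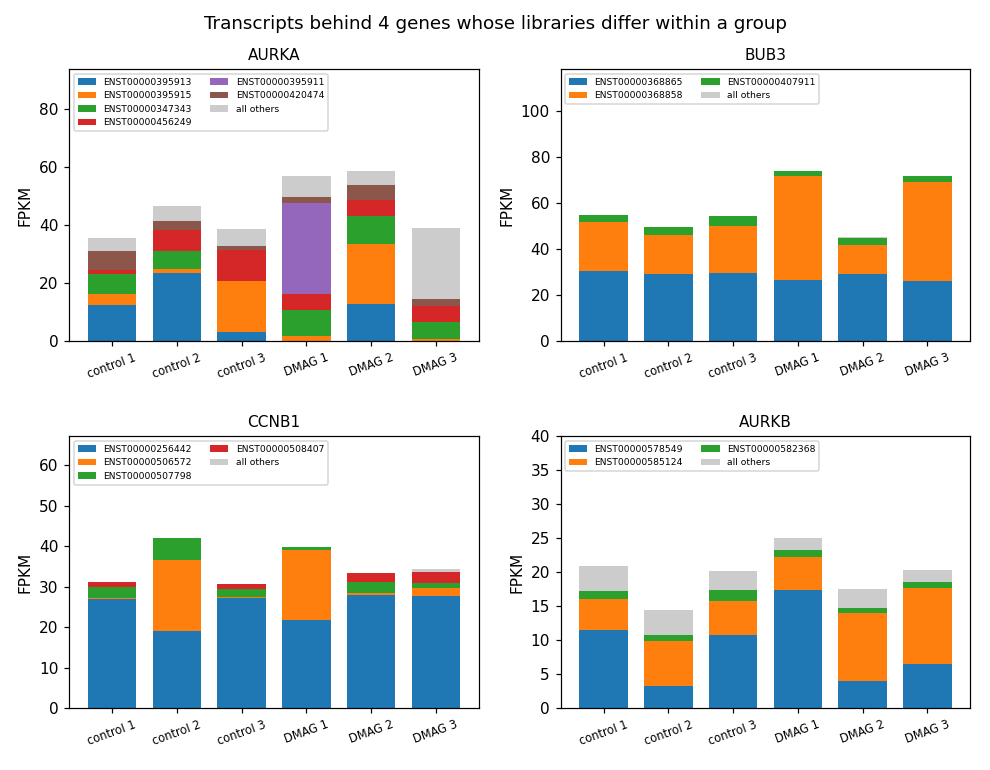
FPKM of each transcript, stacked to the gene's sum, in the 3 control and 3 DMAG libraries for AURKA, BUB3, CCNB1 and AURKB. The tall or short bars of single libraries follow 1 transcript each in BUB3 and CCNB1, and a different transcript leads from library to library in AURKA.

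Ratios of FPKM within a library were compared for 10 pairs with an exact two-sided permutation test, which cannot go below 0.10 for 3 against 3 libraries. At that smallest p (adjusted over the 10 pairs, 0.20) stood 5 pairs whose groups did not overlap, so none of the 10 could pass the threshold. Among single genes of the table, groups that did not overlap were as common (27.9% with DMAG above and 31.6% below), so the count of pairs is not a result about them. Securin over separase, PTTG1 to ESPL1, was 3.93, 3.65 and 3.50 in controls and 5.74, 5.58 and 5.67 with DMAG, the largest shift, with a log2 change of 0.62. The separation rests on gene sums: the most abundant ESPL1 transcript held between 0.1% and 88.6% of the gene, and the ratio of the most abundant transcripts alone changed by -5.97. CDC20 over FZR1, the activators of the anaphase-promoting complex in mitosis and in G1, was 8.58, 8.78 and 9.30 in controls and 6.21, 5.90 and 7.09 with DMAG. FZR1 itself was not called, at 10.8, 10.5 and 9.63 FPKM in controls and 11.6, 12.6 and 10.8 FPKM with DMAG (adjusted p = 0.099).

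MAD2L1 over CDC20, checkpoint inhibitor over its target, was 0.36, 0.33 and 0.36 in controls and 0.39, 0.39 and 0.38 with DMAG. Both genes had fallen, CDC20 by more. NDC80 over NUF2 was 1.34, 1.32 and 1.33 in controls and 1.68, 1.52 and 1.41 with DMAG, and KIF23 over ECT2 was 1.3, 1.33 and 1.47 in controls and 1.12, 1.15 and 1.23 with DMAG. The other ratios overlapped. TPX2 over AURKA was 1.67, 1.33 and 1.53 in controls and 1.07, 1.03 and 1.49 with DMAG (exact permutation p = 0.20), where DMAG library 3 again lay among the controls. CCNB1 over CDK1 averaged 0.54 ± 0.1 in controls and 0.58 ± 0.081 with DMAG (SD, n = 3 each; exact permutation p = 0.50). CCNB1 over CCNB2, AURKB over INCENP and BIRC5 over AURKB gave exact permutation p-values of 1.0, 0.70 and 0.90.

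**Figure D5:**
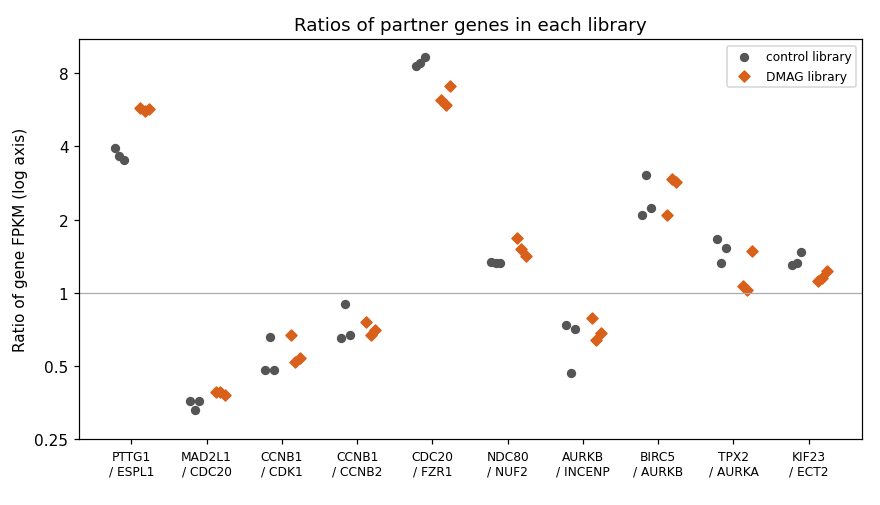
Ratio of FPKM of 2 partner genes in each library (vertical axis, log scale; grey circles control, orange diamonds DMAG) for 10 pairs. The DMAG libraries of PTTG1 over ESPL1 lie between 5.58 and 5.74, above the controls, and those of CDC20 over FZR1 between 5.90 and 7.09, below them.

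Other genes of mitosis, 157 by function, were mixed as well: of 155 tested, 37 rose (23.9%, against 22.4% of all genes) and 33 fell (21.3%, against 26.1%), with a median log2 change of 0.03. The balance depended on the scaling, with 52 higher and 23 lower under quantile normalization (all genes: 23.2% and 24.4%). With equal library medians 45 were higher and 29 lower (all genes: 24.1% each). The anaphase-promoting complex with its checkpoint regulators had more falls than rises, 9 against 4 of 21, and 6 against 5 with quantile normalization. The first counts were 42.9% and 19.0%, against 26.1% and 22.4% of all genes. MAD1L1, which recruits MAD2 to kinetochores, was 19.6, 18.4 and 19.6 FPKM in controls and 11.1, 11.4 and 10.3 FPKM with DMAG (log2 change -0.76, adjusted p = 1.6e-04). UBE2S, the enzyme that extends the ubiquitin chains UBE2C begins, was 49.2, 51.0 and 49.3 FPKM in controls and 34.4, 35.9 and 35.8 FPKM with DMAG, and fell by 0.48 while UBE2C rose. CDC16, a core subunit, fell by 0.45 (adjusted p = 1.9e-04).

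The counts of the lists below stand beside 22.4% higher and 26.1% lower among all genes tested. Of 14 entry regulators tested, 3 rose and 3 fell (21.4% each). Among them were CKS1B, a CDK subunit, at a log2 change of 0.28, GTSE1 at 0.39, and the CDK1-inhibiting kinase WEE1 at -0.25. Of 32 further centromere and kinetochore genes, 7 rose (21.9%) and 8 fell (25.0%), close to the shares of all genes. The inner kinetochore gene CENPU was at 0.32 and the MIS12-complex subunit NSL1 at 0.40, and the inner kinetochore gene CENPM fell by 0.56. Condensin had 1 rise (NCAPG2, 0.18) and 1 fall (NCAPH2, -0.20) among 8 genes (12.5% each). Cohesin with its regulators had 3 rises and 2 falls among 14 (21.4% and 14.3%). The cohesin loader MAU2 was at 0.49, CDCA5 (sororin) at 0.19 and STAG1 at -0.26. Of 33 spindle genes 9 rose and 6 fell (27.3% and 18.2%). The smallest p-values belonged to falls, the augmin subunit HAUS4 (-0.49) and the gamma-tubulin complex genes TUBGCP3 (-0.46) and TUBGCP4 (-0.31). Of 17 cytokinesis genes tested, 4 rose (23.5%) and 1, SEPT9 (-0.18), fell (5.88%). ARHGEF2, a RhoA exchange factor bound to microtubules, was 99.5, 99.8 and 98.2 FPKM in controls and 178, 177 and 175 FPKM with DMAG, the largest rise of all these lists (log2 change 0.83, adjusted p = 2.5e-05), and PDCD6IP, an abscission factor, was at 0.22.

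Of 16 genes of the DREAM, MuvB and NF-Y complexes and their regulators, 6 rose and 3 fell (37.5% and 18.8%, against 22.4% and 26.1% of all genes). NFYA, the subunit of NF-Y that reads CCAAT, was 22.8, 23.5 and 23.1 FPKM in controls and 13.8, 13.4 and 14.7 FPKM with DMAG, and fell by 0.69 (SE 0.0460, adjusted p = 1.4e-04). The other NF-Y subunits were not called, with log2 changes of 0.19 for NFYB (adjusted p = 0.051) and 0.09 for NFYC. RBL2, the p130 pocket protein of the repressive DREAM complex, was 32.1, 30.7 and 31.2 FPKM in controls and 45.9, 44.8 and 46.6 FPKM with DMAG (log2 change 0.53, adjusted p = 1.3e-04). DYRK1A, the kinase that promotes DREAM assembly, rose by 0.38 (adjusted p = 0.0013). MYBL2, the B-MYB activator that joins the MuvB core as cells cycle, was 101, 107 and 108 FPKM in controls and 87.7, 85.5 and 87.3 FPKM with DMAG, and fell by 0.28 (adjusted p = 0.0014). The other called genes were LIN9, LIN54, RBBP4 and RBL1, higher at 0.19 to 0.21, and TFDP1, lower at -0.16. NFYA, RBL2, DYRK1A and MYBL2 had groups that did not overlap, as did 27.9% of all genes with DMAG above and 31.6% below. They were named for small p-values, or for MYBL2 after its values were seen, so the separation is no added result. A link from any gene of this list to the 44 genes was not tested.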

How the data were processed

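The authors deposited FPKM values per transcript, which are estimates without read counts. HISAT2 2.0.4, StringTie 1.3.3, Bowtie and the build GRCh38 are listed, per the submitters' processing notes, with no roles. The annotation and the counting rules, including those for strand and shared reads, are not given in the labels or headers. Transcripts were added up to genes. The 10394 genes whose mean reached 0.5 FPKM entered a limma fit (3.58.1, R 4.3.3, empirical Bayes with a mean trend) of log2(FPKM + 1). P-values were adjusted by Benjamini-Hochberg over all genes tested and called under 0.05. Log2 changes on this scale understate those of low genes. Errors are SD over 3 libraries, and intervals are 95% intervals from limma.

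On simulated data of 10394 genes, of which 200 were changed, the test recovered 29.4% of simulated log2 changes of 0.25. It recovered 74.2% of those of 0.5 and 92.4% of those of 1. Changes of the size seen here could be missed. How many cannot be read from these rates, since 48.6% of the genes were called in the real data.

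The members and lists were chosen with earlier results of these data known. Values in each library are given for called members with the 6 largest rises and the 6 largest falls, for CDK1, CCNB1, PLK1, AURKA, AURKB, FOXM1, TOP2A and MKI67, and for genes in ratios. Of each further list, up to 3 called genes with the smallest p are named. BUB3, DLGAP5, KIF2C, MYBL2 and further genes of the DREAM, MuvB and NF-Y list were given values outside that rule after these were seen. The alternatives were other pseudocounts, filters and scalings, the most abundant transcript alone, no trend, the replicate number as a block, and the omission of each library in turn. The tables of lncRNA, miRNA and circular RNA were not used here.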

Additional observations from a re-analysis of the deposited data

How the results depend on the processing

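Of the 24 called members, 9 kept their call in all 15 alternatives (CCNA2, PLK1, BUB1B, CDC20, PTTG1, CENPA, NDC80, KIF20A and TOP2A), and 14 kept it when each library was left out. Leaving out libraries in turn gave 10 to 14 members higher and 5 to 8 lower. Of all genes, 18.4% to 20.7% were then higher and 22.1% to 23.5% lower. The lowest count of higher members came without control library 2 or 3, and the lowest count of lower members without control library 1 or DMAG library 2. With the most abundant transcript alone, 7 members were higher and 8 lower, where 15.6% of all genes were higher and 17.4% lower. Of the 7, 6 were also higher in the main fit. The median log2 change of the members was 0.12, 1768 genes of the table and 21 other mitosis genes were lower, and CENPE reversed to 0.12 (adjusted p = 0.64). UBE2C, BIRC5, HMMR, PRC1 and ANLN lost their call in that alternative only. With quantile normalization the median of the members was 0.14, with 18 higher and 6 lower (all genes: 23.2% and 24.4%). The other settings for the pseudocount, the filter, the scaling and the trend left 14 to 17 members higher and 7 or 8 lower. Under these settings 16.3% to 24.1% of all genes were higher and 17.1% to 26.9% lower. Scalings moved the median log2 change of all genes to between -0.01 and 0.01.

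With the replicate number as a replicate block, 11 members were higher and 7 lower (all genes: 19.8% and 23.5%). Libraries of the same number correlated in their deviations at -0.00, 0.04 and 0.03, so the numbers were not taken to pair the samples. The planned look at circular RNAs of these genes was not run, since that table does not pair them with host genes. The ratio of TPX2 to AURKA had no value from the most abundant transcripts, as that of AURKA was listed at 0 in 2 libraries. Groups of 3 are too small for the search for outlying libraries. The unknown depth limits what the small changes can show.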
